A study of Mus musculus with 23 samples.

Results

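Alpha-defensins and the other secretory products of Paneth cells were followed through RNA-seq and ribosome profiling of mouse intestine. Members were chosen by symbol in the GENCODE vM21 mouse annotation, which names 22 alpha-defensin genes (Defa followed by a number). Lyz1, Mmp7, Itln1, Ang4, Pla2g2a, Mptx1 and Mptx2 were added to these. This made 29 members among 22350 genes counted in the series. Of the members, 27 had a sequence of their own in the RNA-seq reference and 26 in each of the ribosome profiling references.

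The samples were organoids, epithelial cultures grown from intestinal crypts, and small intestine of mice, all of strain C57BL/6. WT organoids carried VillinCre.ERT2.RPL22.HA, in which an inducible Cre under the Villin promoter acts in intestinal epithelium and RPL22, a protein of the large ribosomal subunit, carries an HA tag. Rptor fl/fl organoids were labelled VillinCre.ERT2.Rptor.fl/fl in RNA-seq, where the HA allele is not named. In Ribo-seq they were VillinCre.ERT2.Rptor.fl/fl.RPL22.HA. Stem cell enriched (SCe) organoids had the WT genotype and were grown with 10 µM CHIR 99021, an inhibitor of the kinase GSK3, and 1.5 mM valproic acid, an inhibitor of histone deacetylases. WT mice were Lgr5Cre.ERT2.RPL22.HA. Their Rptor fl/fl counterparts were Lgr5Cre.ERT2.Rptor.fl/fl.RPL22.HA, and in both Cre is driven by the stem cell gene Lgr5. Apart from SCe cultures the labels call every sample untreated, while the study's methods describe induction of Cre with tamoxifen. The methods describe adult mice of both sexes, and the labels do not give the age of each mouse. RNA-seq covered 2 lines of WT organoids and 2 of Rptor fl/fl organoids, with 2 technical libraries each, and 3 SCe organoids. Ribo-seq, which counts fragments protected by ribosomes that were pulled down through the HA tag, covered 3 organoids or mice in each of its groups. Rptor encodes Raptor, a subunit of the kinase complex mTORC1.

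Paneth cells sit at the base of small intestinal crypts, between the Lgr5-positive stem cells, and store antimicrobial proteins in large granules. Alpha-defensins, called cryptdins in the mouse, are small cationic peptides that damage bacterial membranes. They are made as precursors that matrilysin, the product of Mmp7, cleaves to the active peptide. The same granules hold lysozyme (Lyz1), the ribonuclease angiogenin 4 (Ang4), secreted phospholipase A2 (Pla2g2a), the lectin intelectin 1 (Itln1) and the pentraxin Mptx2, a relative of Mptx1. Wnt signalling through TCF factors drives the maturation of Paneth cells, and these cells in turn supply Wnt3, EGF and Notch ligands to the stem cells beside them. The Pla2g2a gene of C57BL/6 mice is known to be disrupted, and the annotation lists it as a polymorphic pseudogene, so its counts are read as RNA and footprints and not as enzyme.

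All 22 Defa genes lie on chromosome 8 of mm10, between 21025545 (the start of Defa21) and 21735471 (the end of Defa24), and all but Defa29 are on the plus strand. They are recent copies of each other. Among their 231 pairs the identity of the coding sequences ranged from 61.0% to 100%, with a median of 83.3%, and 5 pairs were identical. These pairs were Defa2 and Defa33, Defa3 and Defa17, Defa20 and Defa32, Defa23 and Defa31, and Defa36 and Defa37. The following stretches show what a footprint of 28 bases can and cannot tell apart. They are bases 241 to 268 of the coding sequence, in exon 2, of the 5 Defa genes with most counts in RNA-seq that share a coding length, with capitals marking the bases that differ from the majority of these 5 genes.
Defa17, chr8:21656600-21656627, plus strand: tgcagaaagggtcatttaatgtacaCAc
Defa24, chr8:21735336-21735363, plus strand: tgcagTaagggtcatttaTtgtacatgc
Defa23, chr8:21055880-21055907, plus strand: tgcagaaagggtcatttaatAtacaCgc
Defa30, chr8:21135462-21135489, plus strand: tgcagTaagggtcatttaatgtacatgc
Defa36, chr8:21428257-21428284, plus strand: tgcagaaaTCTtTTtttaaCTtTcGtAT

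Of all windows of this length, this one differed most between the 5 genes, at 14 positions. The Defa24 and Defa30 windows occurred in a single gene each, that of Defa23 in 2 genes, that of Defa17 in 4 and that of Defa36 in 6. At the other extreme, bases 34 to 61 of the coding sequence, in exon 1, were held in the same letters by 15 genes, of which 13 were members. In Defa17 this stretch is at chr8:21655834-21655861, plus strand.
Shared window: ctgctggccttccaggtccaggctgatc

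Over whole coding sequences, between 0% and 39.2% of the windows of 28 bases in a Defa gene occurred in no other gene, with a median of 4.1%, and 11 of the 22 Defa genes had no such window. The other 7 members had between 57.9% (Lyz1, which resembles Lyz2) and 100% such windows. Every nonzero Defa value was an estimate with a fraction (203 of 203 in RNA-seq, 95 of 95 in Ribo-seq of organoids and 99 of 99 in mice, at a tolerance of 0.001). Reads of a shared window were thus split between copies by the authors' counting software, and the value of a single Defa gene is uncertain. The counts summed over all Defa genes are less so, although 6 further genes with other symbols (AY761184, Gm14851, Gm15292, Gm15293, Gm7849 and Gm7861), whose translated sequences are 93.1% to 97.8% identical to a member, can exchange reads with the sum. Adding their counts to it moved no log2 ratio between groups by more than 0.03. Defa31 and Defa37 had no entry of their own in any reference, since their counted sequence is that of Defa23 and Defa36. In Ribo-seq the same held for Defa17, so that its footprints are found under Defa3. Copies that share reads are not independent of each other. Numbers of Defa genes called or going the same way below therefore do not count separate observations.

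**Figure D1:**
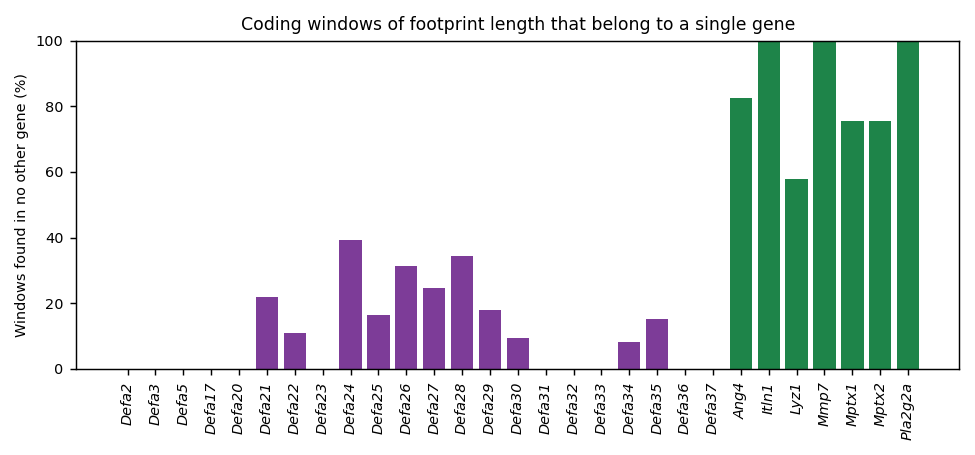
Share of the 28-base windows of each coding sequence that occur in no other gene (vertical axis, percent), for the 22 Defa genes (purple) and the other 7 members (green). Defa24 is the highest Defa gene at 39.2% and 11 Defa genes are at 0%, while the other members range from 57.9% to 100%.

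The libraries held 27439459 to 67598878 assigned reads per organoid in RNA-seq, 1106178 to 8257457 in Ribo-seq of organoids and 772077 to 8238388 in mice. Values are given as CPM, counts scaled to library size by the TMM method. The targeted gene was checked first. Rptor RNA stood at 14.8 and 15.5 CPM in both mutant lines and 47.9 to 60.8 CPM in WT and SCe organoids. In Ribo-seq of organoids, Rptor footprints were 15.9, 17.3 and 18.7 CPM in the libraries labelled Rptor fl/fl, against 15.2, 21.0 and 41.8 CPM in SCe organoids, which overlapped (edgeR adjusted p = 0.318), so that label was not checked by its target. In mice they were 32.5 to 36.7 CPM in Rptor fl/fl and 39.5 to 44.5 CPM in WT (adjusted p = 0.150). Some samples stood apart from their groups. In RNA-seq, SCe replicate 1 had low Paneth and enterocyte RNA (374.8 CPM summed over 9 enterocyte markers, against 6682 and 7695 CPM). In Ribo-seq, SCe replicate 1 had 1096 CPM summed over the same enterocyte markers, against 3645 and 3973 CPM. Rptor fl/fl mouse 1 had high Itln1 and Lgr5. In mice, Lgr5 itself had between 6.29 and 45.6 CPM and 9 to 139 counts, and 7 stem cell markers together 460.7 to 750.3 CPM, against 51718 to 61355 CPM for the enterocyte markers and 25428 to 33666 CPM for 7 goblet markers, so markers of differentiated cells far exceeded those of stem cells in these footprints.

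The summed alpha-defensin signal separated the groups of each assay, except in RNA of Rptor fl/fl and SCe organoids. In RNA-seq the sum was 4483 and 5276 CPM in the WT lines, 808.3 and 1778 CPM in Rptor fl/fl lines, and 155.0, 1664 and 2013 CPM in SCe organoids. Both Rptor fl/fl lines and all SCe organoids were below both WT lines, while Rptor fl/fl and SCe overlapped. The Rptor fl/fl mean of 1293 ± 685.4 (SD, n = 2) was 3.77-fold below the WT mean of 4879 ± 561.2 (n = 2), and the SCe mean of 1277 ± 987.4 (n = 3) was 3.82-fold below it. In Ribo-seq the sum was 7195, 7536 and 8943 CPM in the organoids labelled Rptor fl/fl and 2149, 2177 and 3865 CPM in SCe organoids, so that every library of the first group was above the second, by 2.89-fold between means. In mice it was 19241, 19470 and 19831 CPM in WT and 9088, 9293 and 10619 CPM in Rptor fl/fl. The mouse groups did not overlap, and their means of 19514 ± 297.1 and 9667 ± 831.2 differed 2.02-fold. Defensin footprints thus made up 1.98% to 2.04% of all counts in WT mice and 0.877% to 1.05% in Rptor fl/fl mice, against 0.438% and 0.521% of the RNA counts of WT organoids. These sums were described and not tested. How often the groups of other genes did not overlap was not counted, here or in the comparisons below. In whole organoids, fewer Paneth cells and less RNA per Paneth cell cannot be told apart. In Ribo-seq the sums also depend on ribosome occupancy and on recovery in the pulldown, which cannot be told apart from these either. The study describes the tag in mice as limited to stem cells, so these defensin footprints are not a direct measure of Paneth cells in tissue.

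**Figure D2:**
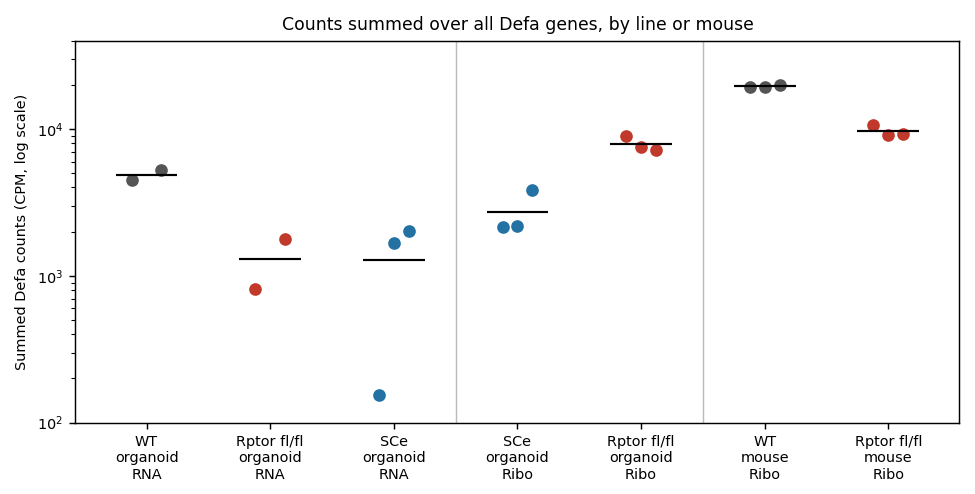
Counts summed over all Defa genes (CPM, log scale) in each organoid line or mouse (points), with group means (bars); the assays are separated by grey lines and grey, red and blue mark WT, Rptor fl/fl and SCe. WT lines sit at 4483 and 5276 CPM above both Rptor fl/fl lines, the organoids labelled Rptor fl/fl lie above SCe in Ribo-seq, and the 3 WT mice lie within 19241 to 19831 CPM.

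Rptor fl/fl and WT organoids were compared in RNA-seq for Paneth cell transcripts in culture. By their labels these lines differ in the HA allele as well as in Rptor, and these differences cannot be told apart. Most members were lower. Of 25 members tested, 22 were called lower and 1 higher at an edgeR adjusted p under 0.05, with a median log2 fold change of -2.65, while 11.0% of the 14131 genes tested were called lower and 11.6% higher and the median of all genes was 0. Of the 18 Defa genes tested, 17 were lower, and Defa24 missed the threshold at a log2 fold change of -1.50 ± 0.41 (SE; adjusted p = 0.0611), which DESeq2 called lower (adjusted p = 0.0397). Defa32 and Defa35 did not pass the filter on low counts. Because the copies share reads, their calls are not independent of each other.

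The depth of the fall differed widely between copies. Defa17, the copy with most RNA, was at 1360 and 1616 CPM in WT and 286.3 and 590.0 CPM in Rptor fl/fl lines, a 3.40-fold difference (log2 -1.76 ± 0.36, adjusted p = 0.0332). Defa24 was at 1244 and 1537 CPM against 297.1 and 683.3 CPM, and these values did not overlap either. Defa23 fell by 2.23 ± 0.39 on the log2 scale, from 590.6 and 726.1 CPM to 88.8 and 191.5 CPM (adjusted p = 0.0242). Defa30 had 460.1 and 614.1 CPM against 90.9 and 201.9 CPM (log2 -1.87 ± 0.41, adjusted p = 0.0374), and Defa36 had 242.4 and 252.3 CPM against 23.5 and 58.1 CPM (log2 -2.60 ± 0.44, adjusted p = 0.0229). Defa2 went much lower, from 131.6 and 96.8 CPM to 1.6 and 2.19 CPM, a 59.9-fold difference (log2 -5.90 ± 0.24, adjusted p = 0.00516). Defa20, whose coding sequence is 99.7% identical to that of Defa2, went the same way, from 122.2 and 94.2 CPM to 1.06 and 2.36 CPM (log2 -5.96 ± 0.36). Defa2 and Defa20 had no coding window of 28 bases of their own, so their values are not independent. The 95% interval of Defa2, -6.53 to -5.28, and that of Defa17, -2.71 to -0.82, were well apart. With copies of identical coding sequence summed, Defa2 and Defa33 together fell by 5.65 and Defa3 and Defa17 together by 1.82 on the log2 scale. The remaining Defa genes called lower had log2 fold changes between -4.71 (Defa33) and -2.34 (Defa26).

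Among the other members, lysozyme RNA had the largest difference. Lyz1 was at 1254 and 1481 CPM in WT and 102.7 and 206.0 CPM in Rptor fl/fl lines (log2 -3.15 ± 0.37, adjusted p = 0.0135). Itln1 went from 818.2 and 1256 CPM to 139.1 and 281.4 CPM (log2 -2.30 ± 0.41, adjusted p = 0.0249). Ang4 went from 193.8 and 192.0 CPM to 34.6 and 58.3 CPM (log2 -2.05 ± 0.25, adjusted p = 0.0149). Mmp7, whose product matures the defensins, was at 76.3 and 88.4 CPM against 22.7 and 28.1 CPM (log2 -1.70 ± 0.14, adjusted p = 0.00953). The sparse Pla2g2a had 6.48 and 5.49 CPM against 0.658 and 1.52 CPM (log2 -2.45 ± 0.41, adjusted p = 0.0230). The pentraxins went apart from the rest. Mptx1 rose from 3.43 and 2.86 CPM to 17.5 and 23.9 CPM (log2 2.71 ± 0.21, adjusted p = 0.00894), and Mptx2 had 15.8 and 15.6 CPM against 8.06 and 13.7 CPM, which missed the threshold (log2 -0.52 ± 0.26, adjusted p = 0.205). The 95% intervals of Mptx1 (2.18 to 3.25) and Mptx2 (-1.20 to 0.16) were apart. Of the coding windows of each of these genes, 75.5% are its own.

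Calls near the threshold depended on the WT lines. Without either WT line 18 members were lower, and Defa17, Defa30 and Defa25 were no longer called (Pla2g2a also without line 1, and Defa26 and Defa29 also without line 2), whereas Defa24 was called without either Rptor fl/fl line and 23 or 24 members were then lower. Over all genes, 399 and 525 were lower without a WT line, against 1558 in the full fit.

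**Figure D3:**
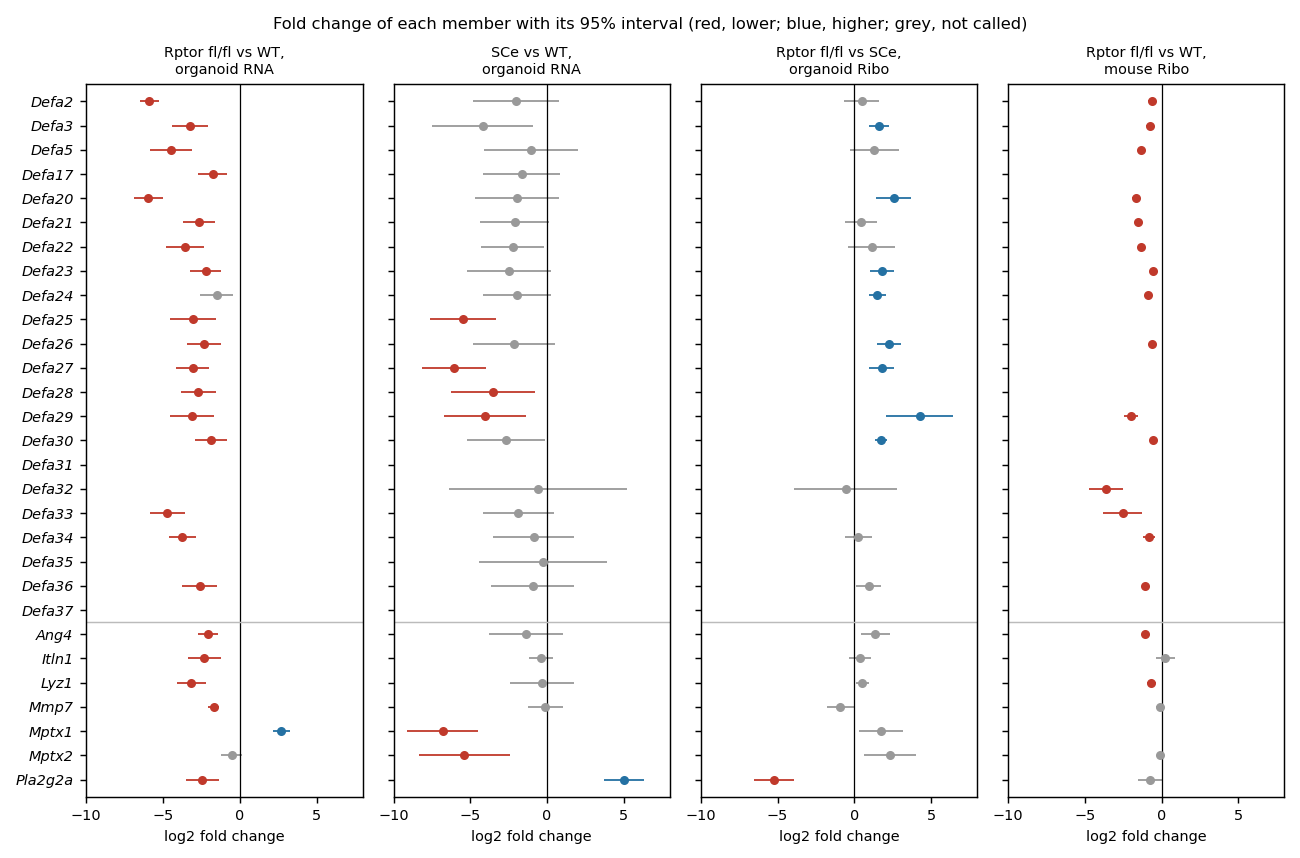
Log2 fold change of each member (points) with its 95% interval (bars) from edgeR's quasi-likelihood fit in 4 of the comparisons, with the horizontal axis shared; red and blue mark calls lower and higher at an adjusted p under 0.05 and grey no call, and a missing point was not tested. In RNA of Rptor fl/fl against WT organoids, Defa2 (-5.90) and Defa20 (-5.96) lie furthest left and Mptx1 (2.71) alone lies right of 0. In RNA of SCe against WT organoids, Mptx1 (-6.8) lies furthest left and Pla2g2a (5.01) alone lies right of 0. In mice every tested Defa gene lies left of 0, with wide intervals for Defa32 (-4.72 to -2.49) and Defa33 (-3.79 to -1.25).

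Genes around the members in the Paneth cell programme moved less uniformly, where 11.0% of all genes tested were called lower and 11.6% higher. Of 12 regulators, 3 were lower and 2 higher. Bhlha15, a factor of secretory cells also called Mist1, fell by 1.88 ± 0.22, and Ephb3, a receptor that positions Paneth cells, fell by 0.38 ± 0.07, while the Wnt receptor Fzd5 rose by 0.41 ± 0.06 and the secretory factor Spdef rose by 0.82 ± 0.17 on the log2 scale. Of 10 tested niche signals and surface genes, 4 were lower and 1 higher. Bst1, an ectoenzyme of Paneth cells, fell by 4.40 ± 0.48, the Paneth marker Cd24a fell by 0.81 ± 0.14 and the Wnt ligand Wnt3 fell by 2.19 ± 0.44, while the Notch ligand Dll1 rose by 0.64 ± 0.09. Of 10 tested genes for other secreted products, Clps (colipase) and Reg3a (a C-type lectin) were lower, by 2.11 ± 0.35 and 0.88 ± 0.19. Markers of other cells moved in the same lines. The sum of 7 goblet markers was 1761 and 1902 CPM in WT and 3088 and 4291 CPM in Rptor fl/fl, with 4 of 7 called higher, and the sum of 7 stem cell markers was 4911 and 6672 CPM against 1977 and 3345 CPM, with 5 of 7 called lower. Enteroendocrine markers summed to 206.4 and 307.6 CPM against 88.7 and 211.5 CPM, which overlapped, with 3 of 8 called lower (Sct, Cck and Gcg) and a median log2 fold change of -2.66. Enterocyte markers summed to 7430 and 8084 CPM against 6252 and 9796 CPM, which also overlapped. The part that such shifts of cell type had in the fall of the members was not tested.

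SCe cultures were compared with WT organoids in RNA-seq on the same WT lines. Of 7 stem cell markers none was called higher in them and 3 were lower (log2 fold changes of -5.55 for Olfm4, -1.81 for Ascl2 and -0.74 for Aqp4), and Lgr5 was not called (log2 0.35 ± 0.22, adjusted p = 0.244). Here Pla2g2a rose, the pentraxins and 4 sparse defensins fell, and the abundant defensins were lower without passing the test. Of 27 members tested, 6 were called lower and 1 higher (median log2 fold change -1.96), where 19.9% of 14925 genes were called lower and 22.4% higher. All 20 Defa genes tested had a negative log2 fold change, from -6.07 to -0.27, and 4 passed, which were the sparse Defa25, Defa27, Defa28 and Defa29. The count rests on SCe replicate 1, whose Defa values were far below those of replicates 2 and 3. Without it 20 members were lower, without replicate 2 there were 3, and without either WT line 2. The calls over all genes moved too, from 2966 lower of 14925 tested to 4786 of 14855 without SCe replicate 1, 1984 of 14590 without replicate 2, and 928 of 15349 and 873 of 15405 without a WT line.

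The abundant copies were spread over a wide range. Defa17 was at 56.2, 611.7 and 741.5 CPM in SCe organoids and Defa24 at 58.6, 443.5 and 554.9 CPM, each below both WT lines in every organoid. Without replicate 1, Defa17 was 1.12 lower and Defa24 1.46 lower on the log2 scale, with adjusted p of 0.00135 and 0.000905 by edgeR, while with it the values were -1.64 ± 0.97 (adjusted p = 0.229) and -1.96 ± 0.87 (adjusted p = 0.130). Defa23 was at 10.1, 161.2 and 174.5 CPM (log2 -2.49 ± 1.07, adjusted p = 0.121) and Defa30 at 9.4, 116.5 and 119.6 CPM (log2 -2.69 ± 1.00, adjusted p = 0.0845). Defa36 was nearer to WT at 10.9, 174.8 and 194.2 CPM (log2 -0.94 ± 1.06, adjusted p = 0.509), and Defa2 was at 1.91, 33.2 and 46.6 CPM (log2 -2.04 ± 1.09, adjusted p = 0.189).

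Among the other granule genes, those for lysozyme, intelectin and matrilysin overlapped WT. Lyz1 was at 211.7, 1346 and 1642 CPM, Itln1 at 548.8, 892.8 and 915.4 CPM and Mmp7 at 36.6, 82.7 and 106.4 CPM (log2 -0.34 ± 0.81, -0.38 ± 0.30 and -0.11 ± 0.44, with edgeR adjusted p of 0.762, 0.352 and 0.865). Their 95% intervals reached from -2.41 to 1.74 for Lyz1 and from -1.24 to 1.03 for Mmp7. Ang4 had 9.7, 88.2 and 124.6 CPM (log2 -1.35 ± 0.94, adjusted p = 0.291). Pla2g2a stood out with 297.5, 136.4 and 137.1 CPM against 6.48 and 5.49 CPM in WT, 32.2-fold higher (log2 5.01 ± 0.50, adjusted p = 0.00278). Both pentraxins were close to 0 in SCe organoids, with 0, 4 and 0 counts for Mptx1 and 0, 7 and 53 counts for Mptx2 against 142 to 834 counts in the WT lines (log2 -6.80 ± 0.90 and -5.39 ± 1.16, adjusted p = 0.00518 and 0.0193). The call of Mptx2 was lost without either WT line or SCe replicate 2.

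Other Paneth cell genes split in both directions, where 22.4% of all genes tested were called higher and 19.9% lower. Of 10 tested genes for other secreted products, Reg3b and Reg3g, antibacterial lectins that enterocytes also make, rose by 5.67 ± 1.58 and 4.16 ± 1.23 on the log2 scale, as did Slc30a2, the zinc transporter of the granules (1.99 ± 0.15), while 4 fell, among them the chemokine gene Ccl6 (-5.22 ± 0.31). Of 12 regulators, 4 fell, with Spdef at -2.83 ± 0.38, Gfi1, a repressor of the endocrine fate, at -1.69 ± 0.20, and Creb3l1 at -1.38 ± 0.13. Of 11 niche signals, 3 rose and 3 fell. Wnt6, Notum (an extracellular Wnt inhibitor and Wnt target) and Egf rose by 6.50 ± 1.02, 3.29 ± 0.27 and 1.91 ± 0.21, and Dll1 fell by 1.62 ± 0.12. Goblet markers summed to 247.2 to 480.4 CPM in SCe organoids against 1761 and 1902 CPM in WT, with 5 of 7 called lower, and enteroendocrine markers to 2.07 to 27.6 CPM against 206.4 and 307.6 CPM, with 7 of 8 called lower. Their part in the members' values was not tested.

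Rptor fl/fl and SCe organoids were then set against each other at the level of RNA, of footprints and of their ratio. These RNA values share their groups with the comparisons above, and here genotype and culture additions differ together. In RNA-seq, 3 of 26 members were called higher and 3 lower, where 21.0% of 15103 genes were called higher and 21.8% lower. The pentraxins were higher in Rptor fl/fl organoids, Mptx1 at 17.5 and 23.9 CPM against at most 0.0628 CPM (log2 9.52 ± 0.71, adjusted p = 0.00137) and Mptx2 at 8.06 and 13.7 CPM against at most 0.912 CPM (log2 4.90 ± 1.22, adjusted p = 0.0275), as was the sparse Defa27 (log2 3.03 ± 0.93, adjusted p = 0.0496). Pla2g2a (log2 -7.43 ± 0.69), Itln1 (-1.90 ± 0.40) and Mmp7 (-1.57 ± 0.47) were lower, with adjusted p of 0.00206, 0.0166 and 0.0461. The abundant defensins overlapped, with Defa17 at -0.10 ± 1.01, Defa24 at 0.48 ± 0.92, Defa23 at 0.28 ± 1.09 and Defa30 at 0.84 ± 1.00 on the log2 scale. Defa36 (-1.63 ± 1.19) and Defa2 (-3.84 ± 1.34, adjusted p = 0.0704) lay lower without passing, as did Lyz1 (-2.79 ± 0.95, adjusted p = 0.0664) and Ang4 (-0.67 ± 0.98). Without SCe replicate 1, 13 members were lower, with Lyz1 at -3.28 (adjusted p = 0.00101), and Mmp7 lost its call without any other single organoid, which left 1 or 2 members lower and 1 or 2 higher (1 higher without either Rptor fl/fl line or SCe replicate 2). Over all genes, 4519 were lower without SCe replicate 1, against 3287 in the full fit and 1293 to 2286 without another organoid. Markers of other cells differed as well, with 6 of 7 goblet markers higher (median log2 fold change 3.64), 3 of 4 tuft and 2 of 8 enteroendocrine markers higher, and both stromal markers tested lower. Their part in the members' values was not tested.

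On ribosomes the defensins were higher in the libraries labelled Rptor fl/fl than in SCe. Of 22 members tested in Ribo-seq, 8 were called higher in the libraries labelled Rptor fl/fl and 1 lower, with a median log2 fold change of 1.33, where 6.63% of 10817 genes were called higher and 9.84% lower. All 8 were Defa genes, and 14 of the 15 Defa genes tested had a positive log2 fold change. Defa24 had 3522, 2616 and 2607 CPM in the libraries labelled Rptor fl/fl, against 931.4, 779.2 and 1372 CPM in SCe (log2 1.50 ± 0.25, adjusted p = 0.00561). The Defa3 entry, which also takes the footprints of Defa17, had 2840, 1754 and 1907 CPM against 602.3, 545.1 and 997.2 CPM (log2 1.60 ± 0.29, adjusted p = 0.00796). Defa23 had 947.8, 1189 and 889.7 CPM against 160.8, 264.8 and 451.2 CPM (log2 1.78 ± 0.35, adjusted p = 0.0104). Defa30 had 768.9, 721.1 and 800.9 CPM against 202.9, 232.2 and 259.0 CPM (log2 1.72 ± 0.17, adjusted p = 0.000953). For none of these 4 did the groups overlap, and the share of all genes whose groups did not overlap was not counted. Defa36 was 0.93 ± 0.36 higher with groups that did not overlap either (346.5 to 463.4 CPM against 115.5 to 336.6 CPM), but missed the threshold (adjusted p = 0.116), and Defa2 overlapped (23.6 to 111.4 CPM against 35.0 to 67.1 CPM, adjusted p = 0.555). Defa20, Defa26, Defa27 and Defa29 were the other 4 called, with log2 fold changes of 2.57, 2.28, 1.79 and 4.25. With copies of identical coding sequence summed, Defa20 with Defa32 no longer passed (log2 1.75 ± 0.67, adjusted p = 0.111).

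Of the remaining granule genes, Pla2g2a alone passed the test. Lyz1 had 1963, 1641 and 1718 CPM in the libraries labelled Rptor fl/fl, against 1145, 1106 and 1450 CPM in SCe (log2 0.52 ± 0.18, adjusted p = 0.0891). Itln1 overlapped, with 1707 to 3305 CPM against 1375 to 2733 CPM (log2 0.37 ± 0.32, adjusted p = 0.473), and so did Mmp7, with 70.9 to 129.7 CPM against 84.5 to 272.2 CPM (log2 -0.92 ± 0.39, adjusted p = 0.141). Ang4 had 379.2, 182.8 and 219.3 CPM against 75.3, 54.3 and 166.8 CPM (log2 1.36 ± 0.42, adjusted p = 0.0587). Pla2g2a had 4.98 to 8.09 CPM against 92.9 to 442.1 CPM (log2 -5.24 ± 0.57, adjusted p = 0.00128). Footprints on the pentraxins were few, at 19 to 38 counts of Mptx1 and 22 to 39 of Mptx2 against 0 to 8 and 0 to 6 (log2 1.76 ± 0.63 and 2.30 ± 0.74, adjusted p = 0.0928 and 0.0670). Without SCe replicate 3, 12 members were higher, Ang4, Lyz1 and Defa36 among them, and over all genes 1081 were higher against 717 in the full fit, and the call of Defa29 was lost without Rptor fl/fl replicate 2 or 3 or SCe replicate 2. Without SCe replicate 2, Mmp7 was a second member called lower (log2 -1.24, adjusted p = 0.0393). All 7 goblet markers were higher in the same libraries (3217 to 5238 CPM in sum against 1184 to 1571 CPM), as were 4 of 9 enterocyte markers, 4 of 7 enteroendocrine markers tested (median log2 fold change 3.28) and 2 of 3 tuft markers tested (2.19), and their part in the members' values was not tested.

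Translation efficiency, the ratio of footprints to RNA, was tested as the interaction of assay and group. Its estimates for defensins were mostly positive and imprecise. Of 22 members, 1 was called higher and 1 lower at a median of 2.27 on the log2 scale, where 1.12% of 10747 genes were called higher and 1.81% lower. Defa20 was higher (log2 6.62 ± 1.41, adjusted p = 0.0370) and Mptx1 lower (-7.61 ± 1.13, adjusted p = 0.00864). Summed with its identical copy Defa32, Defa20 did not pass (log2 6.05 ± 1.59, edgeR adjusted p = 0.0684). The Mptx1 value rests on sparse counts in SCe organoids, 0 to 4 in RNA and 0 to 8 in footprints. Lyz1 (3.37 ± 0.87, adjusted p = 0.0655) and Itln1 (2.33 ± 0.56, adjusted p = 0.0531) came close to the threshold. The estimates for Defa24 (1.09 ± 0.93), Defa23 (1.56 ± 1.14), Defa30 (0.94 ± 0.99), Defa36 (2.62 ± 1.19), Defa2 (4.39 ± 1.35), Ang4 (2.10 ± 1.08), Mmp7 (0.71 ± 0.66), Pla2g2a (2.22 ± 0.84) and Mptx2 (-2.51 ± 1.70) did not pass. Defa17 and Defa3 were comparable between assays as a sum, at 1.74 ± 1.04 (adjusted p = 0.382). The count turned on RNA of SCe replicate 1, without which 10 members and 283 of 10736 genes were higher, against 120 of 10747 genes in the full fit. Without either line of Rptor fl/fl RNA, without SCe replicate 2 or 3 of RNA, without SCe replicate 2 of Ribo-seq or without any library labelled Rptor fl/fl there were 0, among 12 to 153 genes called higher in all (4 members of Defa and 3 others passed at an unadjusted p under 0.05 in the full fit, and 5 by DESeq2). The lone lower call, Mptx1, was lost without SCe replicate 3 of Ribo-seq (-6.65, adjusted p = 0.0827). RNA and footprints came from separate libraries whose Rptor fl/fl genotypes are labelled differently, and that difference cannot be told apart from the assay.

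In mice, Rptor fl/fl and WT were compared in Ribo-seq of small intestine, with the HA tag induced by Cre under Lgr5. Alpha-defensin footprints were lower in Rptor fl/fl mice for every copy tested. Of 21 members tested, 17 were called lower, with a median log2 fold change of -0.83, where 5.97% of 11515 genes were called lower and 7.47% higher. These were all 15 Defa genes tested, with log2 fold changes from -3.60 (Defa32) to -0.53 (Defa30), and Ang4 and Lyz1. DESeq2 called 13 of them, leaving out Defa32, Defa33, Defa34 and Lyz1. Rptor fl/fl mouse 2 had 0 CPM of both Defa32 and Defa33, against 95.6 and 63.8 CPM of Defa32 and 155.0 and 167.0 CPM of Defa33 in the other Rptor fl/fl mice. These single values depend on how reads were divided between identical copies. Summed with its identical copy Defa20, Defa32 ranged from 587.7 to 657.7 CPM in Rptor fl/fl mice. Defa33 summed with Defa2 ranged from 864.2 to 1087 CPM in them. Defa24 had 4659, 4897 and 5288 CPM in WT and 3077, 2514 and 2458 CPM in Rptor fl/fl mice (log2 -0.89 ± 0.09, adjusted p = 3.96e-06). The Defa3 entry, which includes Defa17, had 2192, 2344 and 2371 CPM against 1703, 1139 and 1196 CPM (log2 -0.78 ± 0.12, adjusted p = 0.000355). Defa36 had 1542, 1593 and 1550 CPM against 807.1, 696.9 and 665.7 CPM (log2 -1.11 ± 0.08, adjusted p = 1.11e-07). Defa2 had 1272, 1561 and 1293 CPM against 709.2, 1067 and 919.8 CPM (log2 -0.62 ± 0.12, adjusted p = 0.00274). Defa23 (-0.58 ± 0.07, adjusted p = 8.88e-05) and Defa30 (-0.53 ± 0.11, adjusted p = 0.00392) differed least, from 1561 to 1713 CPM against 1055 to 1220 CPM and from 1180 to 1438 CPM against 738.1 to 1013 CPM. None of these groups overlapped, and the share of all genes whose mouse groups did not overlap was not counted. With identical copies summed, Defa20 with Defa32 had the lowest value of the 5 pairs (log2 -1.98 ± 0.08) and Defa23 with Defa31 the one nearest 0 (-0.58 ± 0.07).

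The other granule genes divided. Ang4 footprints were 2.13-fold lower, at 585.9, 573.8 and 608.1 CPM in WT and 279.0, 280.2 and 271.0 CPM in Rptor fl/fl mice (log2 -1.09 ± 0.07, adjusted p = 4.03e-08). Lyz1 had 1729, 1798 and 1725 CPM against 1485, 981.1 and 866.8 CPM (log2 -0.66 ± 0.14, adjusted p = 0.00537). Mmp7 overlapped, at 161.0, 165.8 and 184.3 CPM against 183.6, 144.0 and 147.3 CPM, and its 95% interval of -0.35 to 0.09 (adjusted p = 0.458) lay apart from that of Ang4, -1.24 to -0.95. Mptx2, which was sparse in organoids, was abundant in mice at 260.0 to 277.0 CPM in WT and 243.2 to 272.8 CPM in Rptor fl/fl (log2 -0.07 ± 0.08, interval -0.24 to 0.10, adjusted p = 0.626). Pla2g2a had 2 to 22 counts in a library (log2 -0.76 ± 0.37, adjusted p = 0.205), and Mptx1, at 1 to 17 counts, did not pass the filter. Itln1 was decided by Rptor fl/fl mouse 1, which had 3415 CPM against 1183 and 1176 CPM in the other Rptor fl/fl mice and 1545 to 1731 CPM in WT. This mouse also had 45.6 CPM of Lgr5 against 6.29 to 11.3 CPM in the other 5 mice. With all mice the log2 fold change of Itln1 was 0.25 ± 0.29 (adjusted p = 0.637), and without that mouse it was -0.45 (adjusted p = 9.72e-05).

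Of 11 genes for other secreted products, 4 rose, 1 (Nupr1) fell and 6 did not pass the test in the same mice, with a median log2 fold change of 0.19. Over all genes tested, 7.47% were called higher and 5.97% lower. Reg3g rose 1.73 ± 0.08 and Reg3b 1.63 ± 0.08 on the log2 scale, from means of 1015 and 2229 CPM to 3358 and 6933 CPM, and Lyz2, a lysozyme of macrophages, and Dmbt1, a mucosal scavenger receptor, rose 0.52 ± 0.09 and 0.44 ± 0.09. Among 6 tested niche genes Bst1 rose 0.55 ± 0.08, and the 12 regulators had a median log2 fold change of -0.14. Among stem cell markers, Olfm4 (-0.63 ± 0.08, adjusted p = 6.29e-05) and Ascl2 (-1.69 ± 0.38, adjusted p = 0.00765) fell, with a median of -0.47 over 7. Among markers of other cells, 5 of 6 stromal genes were higher (883.3 to 942.0 CPM in sum in WT against 1123 to 1324 CPM in Rptor fl/fl), as were 4 of 7 goblet genes. Pancreatic acinar genes summed to 1290 to 3126 CPM in WT and 2382 to 3347 CPM in Rptor fl/fl mice, which overlapped. The part of these cells in the fall of the defensins was not tested.

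**Figure D4:**
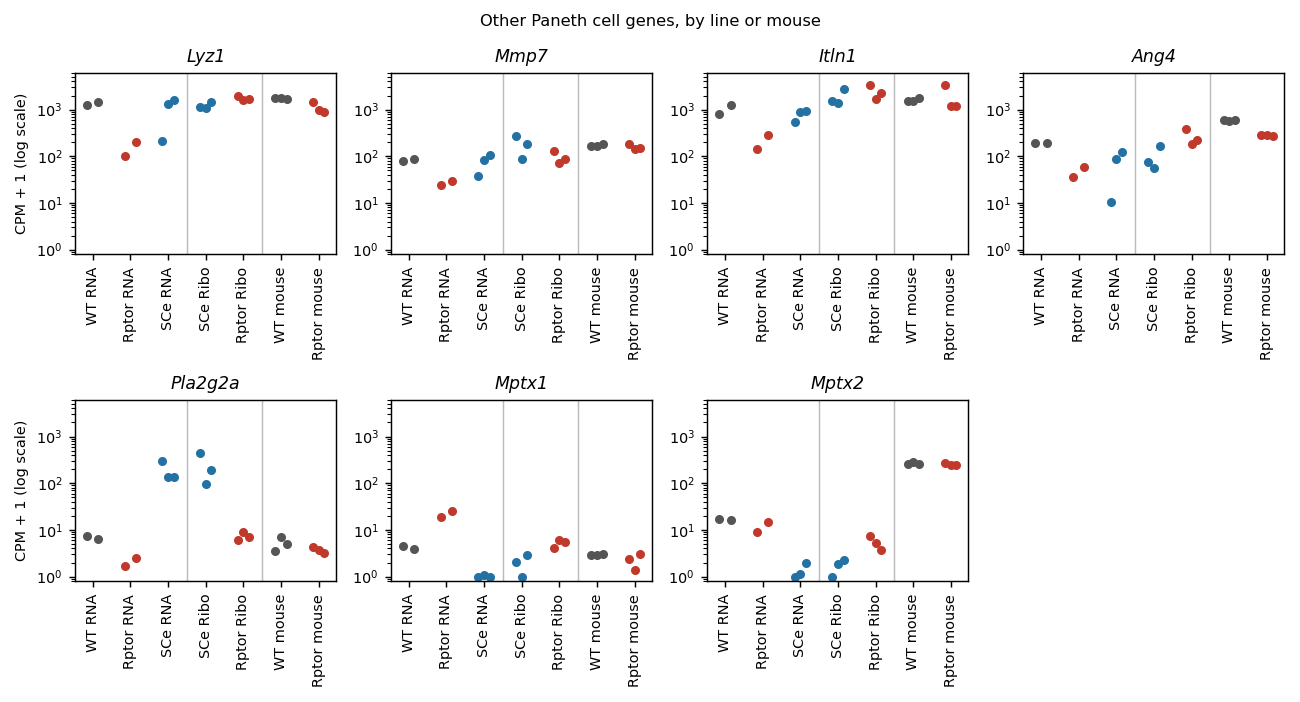
CPM plus 1 (log scale) of the 7 members that are not defensins, in each organoid line or mouse (points); RNA-seq is left of the first grey line, Ribo-seq of organoids between the lines and Ribo-seq of mice right of the second, with grey for WT, red for Rptor fl/fl and blue for SCe. Pla2g2a is high in the SCe organoids of both assays (92.9 to 442.1 CPM), Mptx1 is highest in RNA of Rptor fl/fl lines (17.5 and 23.9 CPM), and Mptx2 is at 243.2 to 277.0 CPM in mice and at most 15.8 CPM in organoids.

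The copies that made up the defensin signal were not the same in organoids and mice. In RNA of WT organoids, Defa3 and Defa17 together gave 32.3% of the Defa counts, Defa24 28.5%, Defa23 13.5%, Defa30 11.0% and Defa36 5.09%. In footprints of SCe organoids and of organoids labelled Rptor fl/fl, Defa24 gave 38.2% and 36.8% and Defa3 with Defa17 26.3% and 27.2%. In WT mice Defa24 still led at 25.3%, but Defa3 with Defa17 gave 11.8%, while Defa20 with Defa32 gave 12.6%, Defa2 with Defa33 10.3%, Defa21 6.0% and Defa22 5.26%. The 3 WT mice were alike, with Defa20 and Defa32 between 11.3% and 13.6%. In no organoid of any group did this pair exceed 4.36%. In RNA-seq, Defa2 with Defa33 gave 0.188% and 0.252% in the 2 Rptor fl/fl lines against 1.76% to 3.33% in WT and SCe organoids, and Defa20 with Defa32 gave 0.131% and 0.133% against 1.35% to 3.10%. In Ribo-seq these pairs gave 0.69% to 1.7% and 1.54% to 4.36% in the libraries labelled Rptor fl/fl, and 1.63% to 2.82% and 0.765% to 3.89% in SCe organoids, which overlapped. In Rptor fl/fl mice Defa20 with Defa32 made up 6.19% to 6.88%, below every WT mouse, and Defa2 with Defa33 8.14% to 11.7%, which overlapped WT. These shares are descriptions and depend on how the counting software divided shared reads.

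**Figure D5:**
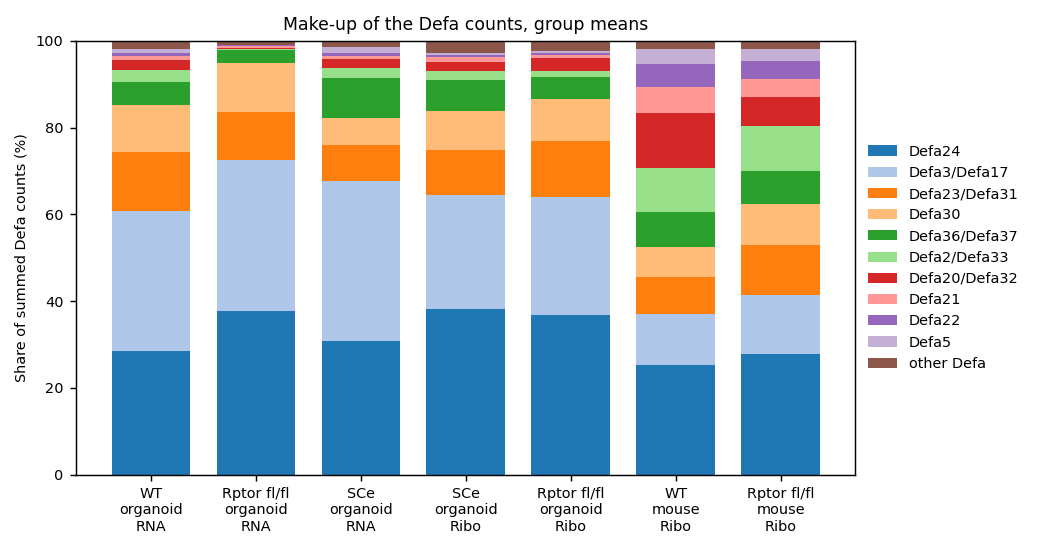
Mean share of each Defa copy or pair of identical coding sequence in the summed Defa counts of a group (stacked bars, percent). Defa24 and Defa3/Defa17 fill most of the bar in RNA of WT organoids (28.5% and 32.3%) and less in WT mice (25.3% and 11.8%), where Defa20/Defa32 (12.6%) and Defa2/Defa33 (10.3%) are wide, and both of these pairs are almost missing from Rptor fl/fl organoids in RNA-seq.

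Levels of different genes were compared per kilobase of the counted sequence. In RNA of WT organoids, Defa17 and Defa24 were the most abundant members at 3492 and 3265 CPM per kilobase, followed by Defa23 (1542), Defa30 (1258), Lyz1 (1066) and Itln1 (909.1). Ang4 stood at 272.1, Defa2 at 265.0 and Mmp7 at 76.1, and the pentraxins and Pla2g2a at 3.93 to 19.7 CPM per kilobase. In footprints of WT mice, Defa24 was first at 13631 CPM per kilobase, then the Defa3 entry (6343), Defa20 (4927), Defa23 (4566) and Defa36 (4303). Lyz1 (3316), Itln1 (1529), Ang4 (1047), Mptx2 (356.6) and Mmp7 (192.5) followed at lower levels. Defa25 and Defa28 had 0 to 2 counts in every mouse, and Defa35 had 0 to 93.

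The promoters of the copies share sequence as the genes do. Promoters of 250 bases before to 50 bases after the start, from RefSeq on GRCm38.p6, were given for 18 members, of which 12 were Defa genes. The letters CTTTGAT, a core site of the Wnt effectors TCF and LEF, were searched on both strands. They occurred in all 12 Defa promoters and in that of Mmp7, against 3.73% of 32851 promoters. Stretches of 28 bases around a site are shown for 3 abundant copies, with the match (ATCAAAG, on the strand opposite to the gene) in capitals.
Defa23, chr8:21054966-21054972, 74 bases before the start: tccaacttcccATCAAAGagtgccttct
Defa30, chr8:21134508-21134514, 142 bases before the start: gacaaaggaacATCAAAGggaactggag
Defa36, chr8:21427301-21427307, 127 bases before the start: aacagaggaacATCAAAGggatcttgat

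The letters TATAAA occurred in 11 of the 12 Defa promoters, against 13.62% of all promoters, again on both strands, and the matches of the 2 motifs did not overlap. Defa copies descend from a common gene, so these promoters are not independent of each other, and a match is a run of letters and not a measured binding site.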

How the data were processed

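RNA-seq (11 libraries) and Ribo-seq (6 of organoids, 6 of mice) had been quantified by the authors with Salmon (1.1.0) after trimming with cutadapt (1.18), per the labels. The deposited expected counts (NumReads per sequence, GENCODE vM21, mm10) are estimates in which a read that matches several copies is divided between them. A deposited table of the authors' own ratios and p-values was not used. No deposited per-sample column was left out (0).

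Here, estimated counts were summed per gene without upstream ORF entries, the technical RNA libraries of a line were summed, and sums were rounded to whole numbers. Each comparison was fitted on its own groups with edgeR (4.0.16, R 4.3.3): filterByExpr, TMM scaling, the quasi-likelihood test and Benjamini-Hochberg adjustment over all genes tested, called at 0.05. For translation efficiency the term tested was assay by group, with scaling inside each assay. SE and 95% intervals come from these fits. CPM were scaled over all organoids or mice of an assay. Named genes were the 7 members that are not defensins, the 6 Defa genes with most RNA, Defa genes whose call differed, and up to 4 called genes of smallest adjusted p in each Paneth list. Defa20, the Defa genes at the ends of a range, Reg3b, Reg3g and Wnt6 (SCe against WT) and Dmbt1 (mice) lie outside that rule and were chosen after their values were seen. The members and lists were chosen with earlier results of these data known. Sample titles number organoids and mice, and the study calls the mice and the WT and Rptor fl/fl organoids of RNA-seq biological replicates. For the other organoids it does not say so. The p-values measure the spread between these samples. Alternatives were DESeq2 (1.42.0), no count filter, other scaling, a replicate block, separate technical libraries, each replicate left out, and, added after the counting sequences had been compared, identical coding copies summed. The fits were run on simulated counts with a fixed spread and no reads shared between copies, so that run cannot test the Defa values. Division of shared reads limits single Defa genes most, and their sum through near copies with other symbols. RNA depth was 27439459 to 67598878 counts an organoid and Ribo-seq depth 772077 to 8257457.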

Additional observations from a re-analysis of the deposited data

Results flagged for a closer look

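Footprints counted on upstream open reading frames were left out of all values above. For Ang4, Pla2g2a and the sparse Mptx2 the 3 libraries of each group did not overlap in these entries. Itln1 overlapped, and Defa27 had 0 counts in every library. How often the entries of other genes did not overlap was not counted, and CPM here are without the TMM scaling. The lowest library labelled Rptor fl/fl had 63.7 CPM (406 counts) of Ang4 and the highest SCe library had 47.2 CPM (200 counts). For Pla2g2a the lowest SCe library had 7.07 CPM (30 counts) and the highest library labelled Rptor fl/fl 0.783 CPM (5 counts). Mptx2 entries had 3, 10 and 9 counts in the libraries labelled Rptor fl/fl and 0 in every SCe library. These differences were not tested, and their cause was not tested.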

How the results depend on the processing

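In SCe against WT organoids, 14 members were lower with technical libraries kept separate, against 6. Over all genes, 4094 of 13869 were then lower, against 2966 of 14925. Technical libraries of a line are not independent samples. In RNA of Rptor fl/fl against SCe organoids, 8 were lower by DESeq2 and 9 with technical libraries separate, against 3. Over all genes these fits gave 3918 and 4384 lower, against 3287. For translation efficiency, 5 were higher by DESeq2 and 0 with identical coding copies summed, against 1. Over all genes, 501 and 119 were higher, against 120. The replicate block left 0 members higher and 0 lower there, among 2 genes higher and 2 lower in all, and turned Defa30 to -0.24. In RNA of Rptor fl/fl against SCe organoids the replicate block turned Ang4 to 0.59 and Defa17 to 1.15, none of them called before or after. Same-numbered samples correlated weakly in RNA-seq (0.144 to 0.303, 2 numbers in each comparison) and hardly in Ribo-seq (-0.044 to 0.034). In Rptor fl/fl against WT organoids, with 2 lines in each group, both numbers give the same value by construction (0.303). The study's methods mention Rptor fl/fl cultures induced in vitro to obtain paired samples, but no label says that a number marks a shared source. These values were too few to take the numbers as pairs. With the block 23 members were lower in Rptor fl/fl against WT organoids, Defa24 among them (-1.62, adjusted p = 0.00526 by edgeR), and 17 in mice. Over all genes 2392 and 574 were lower with the block, against 1558 and 687 in the full fits.

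Leaving out a replicate, where at least 2 stayed in each group, gave 3 to 20 members lower in SCe against WT (1793 to 4786 of all genes). It gave 1 to 3 higher and 1 to 13 lower in RNA of Rptor fl/fl against SCe (1833 to 4582 and 2126 to 4519 genes). Ribo-seq of organoids had 1 to 2 lower (434 to 1512 genes) and mice had 16 to 19 lower (380 to 859 genes). Translation efficiency had 0 to 10 higher and 0 to 1 lower (28 to 401 and 42 to 550 genes). In Rptor fl/fl against WT organoids every such fit kept a lone line in a group, and the median log2 fold change of members was -3.43 to -2.22. Log2 fold changes that changed sign ranged from -0.78 to 0.15 (Lyz1) and -0.44 to 0.22 (Mmp7) in SCe against WT, from -0.71 to 0.38 (Defa17), -0.24 to 0.96 (Defa24) and -0.37 to 0.74 (Defa23) in RNA of Rptor fl/fl against SCe, and from -0.45 to 0.51 (Itln1) in mice. Where a lone sample remained, its spread was assumed to be that of the other group. Apart from what the construction of an alternative shows, the cause was not tested. The near copies added to the Defa sum were chosen by proteins translated from GENCODE, in place of RefSeq proteins. Depth limits Mptx1 and Pla2g2a in mice, and sequence similarity limits single Defa genes.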
